A study of Sus scrofa with 4 samples.

Results

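In pigs (Sus scrofa) of the Tibetan breed, 89 of 18367 gene models were abundant in liver, lung and kidney and low in heart. These heart-low models were chosen from the measured levels themselves: each had to reach 10 RPKM (reads per kilobase of the model, divided by the read total of the library) in liver, lung and kidney, with the lowest of those values at least 5 times the heart value after 1 RPKM was added to both. Models for which 2 libraries stood at least 5-fold above the other 2 were left out, as were models of 250 bases or less or of 10000 bases or more, and all models on 3 scaffolds set aside. The level and the 5-fold gap alone were met by 108 models, of which these exclusions removed 19.

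The samples were 4 organs of the Tibetan breed, each with 1 library of total RNA and no treatment named in the labels. Neither age nor sex is given in the sources used here, nor whether the organs came from 1 animal. Reads on gene models totalled between 4090775 in liver and 14062622 in heart, with 5486480 in kidney and 8853076 in lung. Since no organ had a replicate, every difference below is a difference between libraries and none has a p-value.

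The heart wall is built largely of cardiomyocytes, contractile cells rich in mitochondria, together with endothelial cells, fibroblasts and immune cells. Liver, lung and kidney are organs in which epithelial cells, such as hepatocytes, the lining of the airways and alveoli, and the cells of the renal tubules, do much of the work of synthesis, exchange and transport. Bulk RNA from a whole tissue mixes all of its cells, so fewer cells of a type and less RNA per cell cannot be told apart. Gene names do not stand beside the model identifiers in the files, and 0 of the 18367 identifiers were found in the reference tables of pig genes. Functions of the heart-low models, pathway lists and markers of the labelled tissues therefore could not be read, and models are described by level, length and place on their scaffold.

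The levels of the heart-low models covered a wide range in every library. Heart values ran from 0 to 49.7 RPKM with a median of 1.37. Liver values ran from 10.4 to 1972 RPKM with a median of 52.6, lung values from 10.5 to 679 with a median of 50.4, and kidney values from 11.2 to 2994 with a median of 64.4. The quartiles were 0.314 and 4.02 RPKM in heart, 25.4 and 131 in liver, 25.5 and 107 in lung, and 26.6 and 134 in kidney. The 4278 other models that met the same minimum level in liver, lung and kidney and the same exclusions had a heart median of 33.3 RPKM. Their medians were 25.7 RPKM in liver, 43.6 in lung and 49.8 in kidney.

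As a share of each library, the 89 models took 0.0423% of heart reads (95% Clopper-Pearson interval 0.0412 to 0.0433), 2.10% of liver reads (2.09 to 2.12), 1.04% of lung reads (1.03 to 1.04) and 1.77% of kidney reads (1.76 to 1.78). They held 5943 reads in heart, the deepest library, and between 86005 and 97081 in each of the others. Since heart levels were used to choose the models, these shares describe the choice and support nothing about it.

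**Figure D1:**
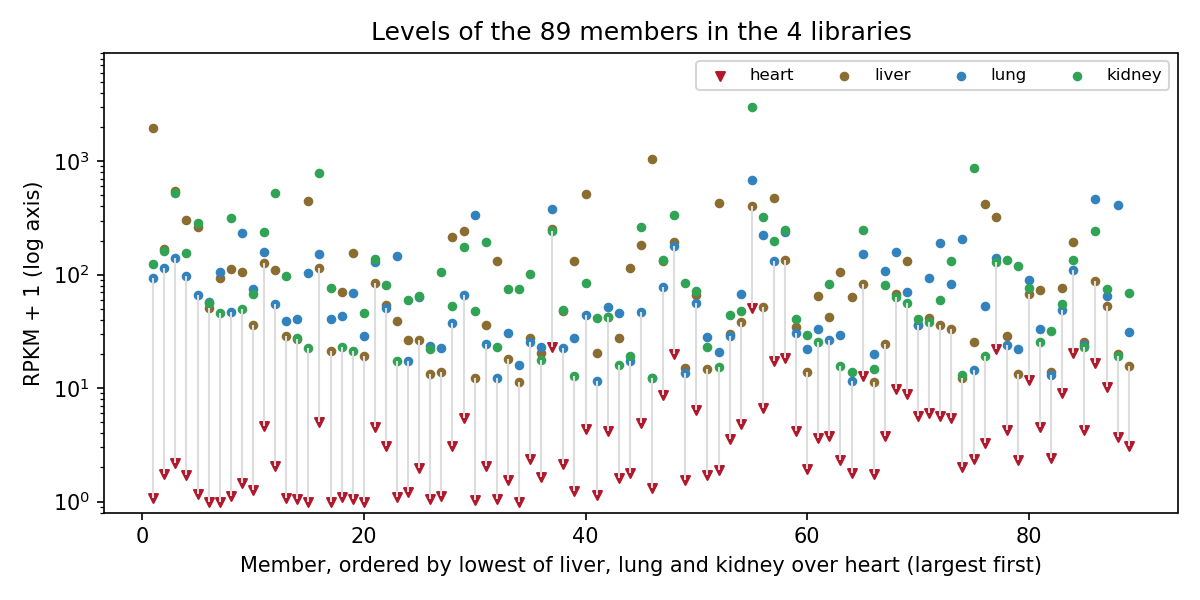
RPKM + 1 on a log axis (vertical) for each of the 89 heart-low models (horizontal), ordered from the largest to the smallest ratio of the lowest of liver, lung and kidney over heart. Triangles are heart, circles the other 3 libraries, and grey lines span the gap, which runs from 87.3-fold at the left to 5.13-fold at the right.

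The gap between heart and the lowest of the other libraries was used by the rule and is given as a description. It had a median of 9.59-fold on the RPKM + 1 scale, which understates the ratio of models with low heart values, and a median of 9.26-fold when models with 0 heart reads were set to a floor of 3 reads. The gap was at least 10-fold in 42 of the 89 models, at least 20-fold in 18 and at least 50-fold in 6. For 80 of the 89 the 95% counting interval of the RPKM ratio lay wholly above 5, and for all 89 it lay above 3. The intervals hold only the error of counting, because each organ had 1 library. Reads that carry no molecular identifier are not independent molecules, so the intervals may be too narrow even for that error.

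The 2 widest gaps belonged to models of quite different profile. The first, evm.model.scaffold533.6, a model of 2088 bases, stood at 0.0681 RPKM in heart, 124 in kidney, 92.3 in lung and 1972 in liver. Its heart value rested on 2 reads, and the ratio of lung, the lowest of the others, over heart was 1355 (95% interval 375 to 11197) without the added RPKM and 87.3 with it. Liver was 15.8-fold above kidney for this model, so it was low in heart and led by a single organ.

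The second, evm.model.scaffold47837.16, of 1812 bases, stood at 0.746 RPKM in heart, 161 in kidney, 115 in lung and 167 in liver. Its 19 heart reads gave a ratio of lung over heart of 154 (98.1 to 256), or 66.2 on the RPKM + 1 scale. As deposited, the 3 other libraries lay within 1.45-fold of each other, so this model was close to even outside the heart on that scale. Median-ratio scaling, described below, raises liver and lowers lung, which would widen this spread.

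Few of the heart-low models were wholly without heart reads. No heart read fell on 6 models, and for these the lowest of the other libraries was at least 28.6-fold to at least 134-fold higher than the floor of 3 heart reads. A further 31 had heart reads but were under 1 RPKM, 42 lay between 1 and 10 RPKM, and 10 were at 10 RPKM or more in heart. In those 10 the lowest of the other values was between 66.3 and 401 RPKM, against a median of 16.4 RPKM for the 31 models under 1 RPKM in heart. Their gap was narrower, between 5.23- and 10.5-fold. A high heart level leaves room under the rule only for models that are abundant elsewhere, so these classes follow in part from the choice. Heart values rested on fewer than 10 reads in 27 of the 89 models, including the 6 with none and 11 with 1 to 3 reads.

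Set against each library alone, the heart-low models had median log2(RPKM + 1) differences of 3.90 for liver minus heart, 3.80 for lung minus heart and 4.39 for kidney minus heart. The other models had -0.30, 0.44 and 0.54. Under median-ratio scaling, which is described below, the heart-low medians were 4.50, 3.31 and 4.01 and those of the other models 0.27, -0.12 and 0.10. The rule required each of the 3 organs to stand above heart, so these differences describe the choice, and they share the heart library.

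Heart-low models formed the far end of a continuous range. Of the 4367 models that met the minimum level and the exclusions, heart was below the lowest of the 3 others at least 2-fold in 431 (9.87%), at least 3-fold in 207 (4.74%), at least 5-fold in 89 (2.04%), at least 10-fold in 42 (0.962%) and at least 20-fold in 18 (0.412%). Over all 18367 models the 89 made up 0.485%. In the opposite direction heart was at least 5-fold above the highest of the 3 others in 30 of the same 4367 models, or 0.687%. The minimum level was set on liver, lung and kidney and not on heart, so these shares are not on an equal footing. Just inside the 5-fold limit lay models at 5.13- and 5.15-fold, and just outside it models at 4.997- and 4.88-fold. Between 5- and 6-fold there were 14 heart-low models, and 40 other models lay between 4- and 5-fold. At the level limit the nearest values inside were 10.36 and 10.39 RPKM, and outside 9.73 and 9.63.

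**Figure D2:**
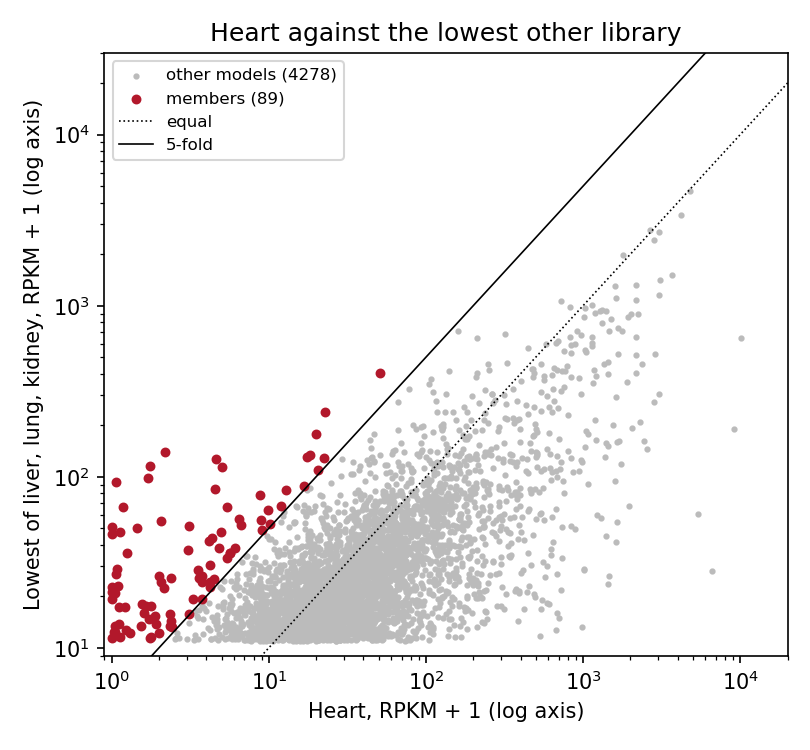
Heart level (horizontal) against the lowest of liver, lung and kidney (vertical), both as RPKM + 1 on log axes, for the 89 heart-low models (red) and 4278 other models (grey). The solid line marks the 5-fold gap and the dotted line equal levels; the red points lie above the solid line without a break from the grey ones.

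Outside the heart, the models differed in which organ led. Kidney was highest of the 3 in 40 of the 89 (44.9%, 95% Clopper-Pearson interval over models 34.4 to 55.9), liver in 26 (29.2%, 20.1 to 39.8) and lung in 23 (25.8%, 17.1 to 36.2). Among the 4278 other models kidney led in 52.6%, lung in 40.0% and liver in 7.46%. The order of liver, lung and kidney was not fixed by the rule, but their lowest value was, and models of 1 genome are not independent draws, so the shares are set side by side without a test.

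The 26 models highest in liver had a median liver level of 179 RPKM (24.6 to 1972) and a median heart level of 1.26. The 40 highest in kidney had a median kidney level of 98.2 RPKM (28.5 to 2994) and a heart median of 1.75. The 23 highest in lung had a median lung level of 92.8 RPKM (18.8 to 460) and a heart median of 0.754. As deposited, liver-led models were the least even of these groups, with a median ratio of 4.67 between the highest and lowest of the 3 libraries. The ratio was 3.54 for kidney-led and 2.28 for lung-led models. These ratios were not computed for the other models or after median-ratio scaling, described below, which changes which organ leads. The gap to heart was alike in the 3 groups, with medians of 9.54-, 9.23- and 9.94-fold for liver-, kidney- and lung-led models.

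The share led by liver depended on scaling. RPKM divides by the total of the library and so moves with what makes up that total. Median-ratio scaling instead divides a library by the ratio that its typical model has to the geometric mean of all libraries. Its factors, from 10247 models above 1 RPKM everywhere, were 0.927 for heart, 0.614 for liver, 1.38 for lung and 1.27 for kidney. With the same 89 models, liver then led in 55 (61.8%, 50.9 to 71.9), kidney in 25 (28.1%) and lung in 9 (10.1%). The shares in the other models became 45.1% for liver, 29.5% for kidney and 25.3% for lung. Liver therefore led a larger share of these 89 models than of the others under both scalings, by 29.2% against 7.46% and by 61.8% against 45.1%. The 89 were chosen as deposited. With heart-low models chosen anew under median-ratio scaling, liver led in 50.6% of 77 (39.0 to 62.2). That interval holds the 45.1% of the others, but the others were chosen as deposited and not anew. The 50.6% therefore has no matched background. Whether liver led a larger share of models chosen anew under this scaling was not tested.

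**Figure D3:**
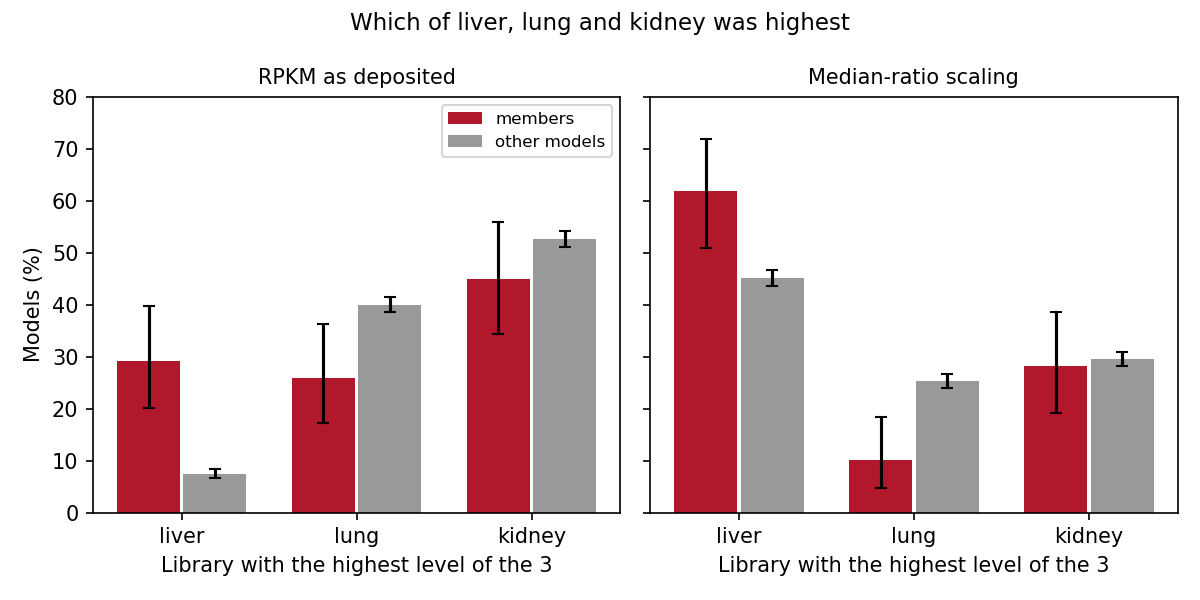
Percent of models (vertical, from 0) whose highest level of the 3 organs was in liver, lung or kidney, for the 89 heart-low models (red) and 4278 others (grey), with RPKM as deposited at the left and after median-ratio scaling at the right. Error bars are 95% Clopper-Pearson intervals over models; the red liver bar stands above the grey one in both panels, at 29.2% against 7.46% and at 61.8% against 45.1%.

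Many of the heart-low models were far from even among the other organs. The ratio of the highest to the lowest of liver, lung and kidney, on the RPKM + 1 scale, had a median of 3.45 and ran from 1.11 to 85.4, against a median of 2.53 for the other models. It was under 2-fold in 25 of the 89 (28.1%, 19.1 to 38.6) and in 29.9% of the others. It was 5-fold or more in 32 of the 89 (35.96%, 26.1 to 46.8) and in 14.8% of the others. In 15 of the 89 (16.9%, 9.75 to 26.3) a single organ stood at least 5-fold above the second of the 3, liver in 7, kidney in 5 and lung in 3. The same held for 3.72% of the other models. After median-ratio scaling these shares were 20.2% and 2.76%. The exclusion of models with 2 libraries high against 2 acts unequally here. It removes other models in which heart and a single organ were both high, and no heart-low model can be removed in that way. It was also met by 15 of the 108 models with the level and the 5-fold gap to heart. In those, 2 organs stood at least 5-fold above the third organ and heart. The shares of the heart-low and other models are therefore not on an equal footing. The same limit holds for the shares of large differences between organs given below.

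As deposited, the 25 even models are those for which the description low only in heart is closest to the whole profile. Which models are even was not computed after median-ratio scaling, whose factors for liver (0.614) and lung (1.38) lie well apart. Their lowest value outside the heart had a median of 50.1 RPKM (10.4 to 240) and their heart value a median of 3.52 RPKM (0 to 21.9). The widest gap among them was that of evm.model.scaffold47837.16, at 66.2-fold. The 15 models led by a single organ were low in heart and also 5-fold lower in 2 of the other organs than in the third.

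Between lung and liver, the heart-low models split almost evenly. Lung was above liver in 42 and below it in 47, and lung minus liver, in log2(RPKM + 1), had a median of -0.06 and quartiles of -1.11 and 0.78. In the other models the median difference was 0.63. Lung was at least 4-fold above liver in 7 of the 89 models (7.87%, against 10.6% of all 4367 models) and liver at least 4-fold above lung in 11 (12.4%, against 3.18%). The model with the largest difference towards lung, evm.model.scaffold4591.7 of 2277 bases, stood at 0.0312 RPKM in heart, 47.2 in kidney, 335 in lung and 11.4 in liver. Its lung level was 27.2-fold above its liver level, and its heart value rested on 1 read. The next, evm.model.scaffold207411.1 of 259 bases, stood at 2.75 RPKM in heart, 18.3 in kidney, 406 in lung and 18.9 in liver. Lung exceeded liver 20.5-fold for this model, and liver and kidney were nearly equal.

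Towards liver, the largest difference belonged to evm.model.scaffold45796.7 of 3396 bases, at 0.314 RPKM in heart, 11.2 in kidney, 11.3 in lung and 1038 in liver. Liver was 84.6-fold above lung, and lung and kidney lay just above the minimum level of 10 RPKM. It was followed by evm.model.scaffold533.6, described above, with liver 21.2-fold above lung.

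Between kidney and liver, kidney was above liver in 54 of the 89 models and below it in 35. The median kidney minus liver difference was 0.19 on the log2 scale (quartiles -0.94 and 1.31), against 0.86 for the other models. Differences of at least 4-fold were as frequent in both directions: 13 models were higher in kidney (14.6%, against 6.43% of all 4367) and 13 higher in liver (14.6%, against 1.08%). The model furthest towards kidney, evm.model.scaffold27154.1 of 466 bases, stood at 1.37 RPKM in heart, 875 in kidney, 13.3 in lung and 24.7 in liver, a 34.1-fold difference from liver. The next, evm.model.scaffold47170.21 of 1266 bases, stood at 1.35 RPKM in heart, 118 in kidney, 21.2 in lung and 12.4 in liver, 8.95-fold above liver. Both were led by kidney alone, with liver and lung within 2-fold of each other.

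Furthest towards liver in this pair were evm.model.scaffold45796.7, 85.4-fold above kidney, and evm.model.scaffold207294.1. The latter, of 316 bases, stood at 0.900 RPKM in heart, 14.4 in kidney, 19.7 in lung and 429 in liver, with liver 27.9-fold above kidney. Its heart value rested on 4 reads and its kidney value on 25.

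Between lung and kidney the median difference lay near that of the other models, while differences of at least 4-fold towards kidney made up a larger share of the heart-low models. The median lung minus kidney difference was -0.29 on the log2 scale (quartiles -1.13 and 0.41), against -0.19 for the other models. Kidney was at least 4-fold higher in 13 of the 89 (14.6%, 8.01 to 23.7, against 6.98% of all 4367). Lung was at least 4-fold higher in 6 (6.74%, 2.51 to 14.1, against 4.12%), an interval that holds the share of all models. Towards lung, evm.model.scaffold207411.1 was 21.1-fold higher. It was followed by evm.model.scaffold12736.1 of 850 bases, at 1.00 RPKM in heart, 12.0 in kidney, 207 in lung and 11.2 in liver, a 16.0-fold difference. Towards kidney, evm.model.scaffold27154.1 was 61.1-fold higher. For evm.model.scaffold19841.9 of 2907 bases the levels were 1.05 RPKM in heart, 522 in kidney, 54.5 in lung and 110 in liver, with kidney 9.43-fold above lung.

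Median-ratio scaling moved these differences for all models together. With the membership as chosen, the median lung minus liver difference of the heart-low models became -1.20 and that of the others -0.49, and the median kidney minus liver difference became -0.84 and -0.15. A library factor shifts both sets almost alike, so the distance between them is not a second measurement. The split of large differences moved with scaling. Liver was then at least 4-fold above lung in 26 of the 89 and lung above liver in 3, while liver was above kidney in 22 and kidney above liver in 2. Among the 4278 others, liver was above lung in 10.7% and lung above liver in 2.97%, and liver was above kidney in 2.90% and kidney above liver in 1.01%.

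**Figure D4:**
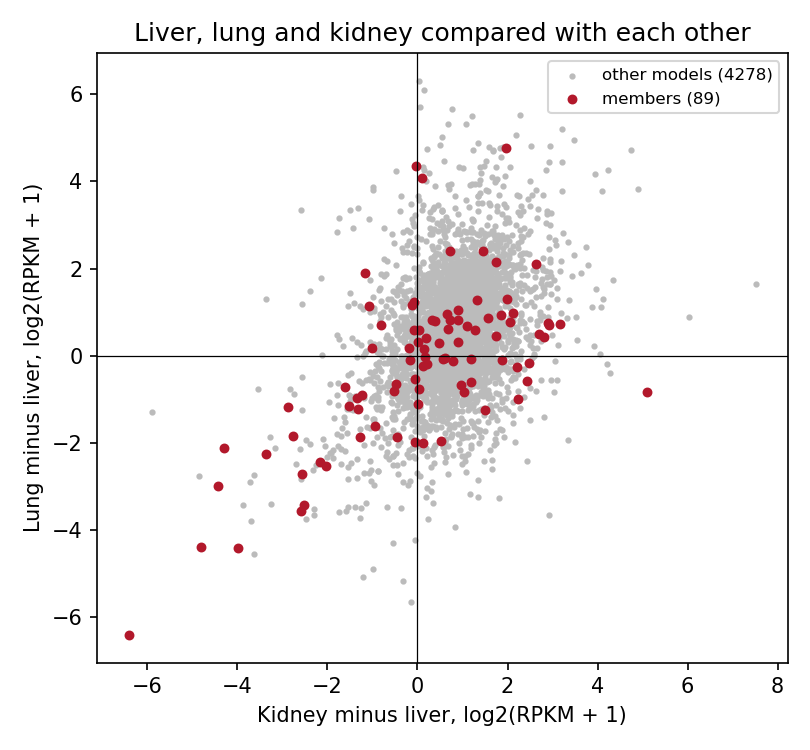
Kidney minus liver (horizontal) against lung minus liver (vertical), both as differences in log2(RPKM + 1), for the 89 heart-low models (red) and 4278 other models (grey). The red points spread into the lower left, where liver was the highest of the 3, down to -6.42 and -6.40 for the model furthest out.

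Levels in liver and kidney followed each other less closely across the heart-low models than across the others. The Spearman correlation of liver and kidney was 0.28 across the 89 models and 0.74 across the 4278 others, with Pearson correlations of log2 levels of 0.28 and 0.80. For lung and kidney the Spearman values were 0.41 and 0.53, and for liver and lung 0.39 and 0.47. These correlations are across models within the same libraries, and models are not replicates. The exclusion of models with 2 libraries high against 2 acts unequally on the heart-low and the other models. It was met by 15 of the 108 models with the level and the 5-fold gap, in which 2 organs were jointly high. The correlations of the heart-low and other models are therefore not on an equal footing and are given as a description.

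In length the heart-low models were close to the others. Their median length was 1266 bases (quartiles 792 and 1920, range 259 to 5946), against 1176 bases for the other models (quartiles 717 and 1904). By length, heart-low models made up 1.67% of the 777 models of up to 600 bases, 2.06% of the 1458 up to 1200 bases, 2.15% of the 1445 up to 2400 bases and 2.18% of the 687 longer ones, and the counting intervals of these shares overlapped. A length that is a multiple of 3, as for a complete coding sequence, was found in 82 of the 89 (92.1%) and in 93.6% of the others. The 7 models of other lengths included 4 of those named above: evm.model.scaffold207294.1 for liver, evm.model.scaffold12736.1 and evm.model.scaffold207411.1 for lung, and evm.model.scaffold27154.1 for kidney. Of the 7, 6 had a ratio of at least 10.3 between the highest and lowest of liver, lung and kidney. That count was made after the values were seen, and its limit is the smallest of those 6 ratios. No such count was made for models whose length is a multiple of 3 or for the other models, so nothing about length follows from it.

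The heart-low models lay on 82 scaffolds, 76 of which carried 1 of them, 5 carried 2 and 1 carried 3. Scaffolds and adjacent models were not counted for other sets of 89 models. The counts therefore cannot show whether heart-low models were more or less scattered than other models. In all, 4 of the 89 (4.49%, 1.24 to 11.1) had a model number next to that of another heart-low model on the same scaffold, in 2 pairs that were named after their values were seen. On scaffold 47837, evm.model.scaffold47837.15 stood at 0.0559 RPKM in heart, 20.1 in kidney, 67.4 in lung and 154 in liver. It lay beside evm.model.scaffold47837.16, described above as near even in the deposited values. On scaffold 45962, evm.model.scaffold45962.12 stood at 0.107 RPKM in heart, 16.4 in kidney, 145 in lung and 38.2 in liver. Its neighbour evm.model.scaffold45962.13 had no heart read and stood at 92.7 RPKM in liver, 105 in lung and 45.4 in kidney. Both models of the second pair were highest in lung and lowest in kidney, whereas the models of the first pair differed in kidney (20.1 against 161 RPKM) and little in liver (154 against 167 RPKM).

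Beside heart-low models lay 126 models with a read in any library that were not heart-low themselves, of which 31 met the minimum level and the exclusions. The lowest of liver, lung and kidney was at least 2-fold above heart in 3 of these 31 (9.68%) and in 7.98% of the 4247 remaining models. The median log2 ratio of the lowest of the 3 over heart was -0.13 for the neighbours, with a 95% interval of -0.94 to 0.40, and -0.47 for the remaining models. On 5 scaffolds the heart-low model was the only model with reads (5.62% of the 89, against 3.30% of the others).

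The same rule applied to each other library in turn gave sets of different size. Models low only in liver numbered 198 (1.08% of the 18367), low only in lung 55 (0.299%) and low only in kidney 13 (0.0708%). The sets share their high libraries, so their counts are not independent. The gap is the value that chose each set, so its size is given as a description. As deposited, it was 10-fold or more in 47.2% of the models for heart (95% Clopper-Pearson interval over models 36.5 to 58.1), 34.5% for lung (22.2 to 48.6), 17.7% for liver (12.6 to 23.7) and 0 of 13 for kidney. The intervals of heart and lung overlapped. The sets were also chosen anew under median-ratio scaling, an alternative added after seeing the data. The shares were then 41.6% of 77 models for heart (30.4 to 53.4) and 30.5% of 131 for lung (22.8 to 39.2). They were 21.6% of 51 for liver (11.3 to 35.3) and 11.1% of 27 for kidney (2.35 to 29.2). Under that scaling the interval of heart overlapped those of lung and liver. The median gaps as deposited were 9.59-fold for heart, 8.93-fold for lung, 6.90-fold for liver and 7.03-fold for kidney. As deposited, the heart level was under 1 RPKM in 41.6% of the heart-low models. The same held in 18.2% of the liver-low models in liver, 14.5% of the lung-low models in lung and 1 of the 13 kidney-low models in kidney. The level in the low library also chose each set, and these shares were not computed under median-ratio scaling. The heart library was also the deepest and the liver library the shallowest. After all libraries were thinned to the 4090775 reads of liver, 93 models met the rule for heart, 82 of them among the 89.

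The size of the heart set changed least with scaling. Under median-ratio scaling 77 models met the rule for heart, 62 of which were among the 89. For liver 51 met it, 49 of them among the 198. For lung 131 met it, 54 of them among the 55, and for kidney 27, 10 of them among the 13. Median lengths also differed, at 1266 bases for heart, 1473 for liver, 540 for lung and 1227 for kidney, with 95% intervals over models of 1065 to 1479, 1285 to 1720, 465 to 897 and 591 to 2442.

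**Figure D5:**
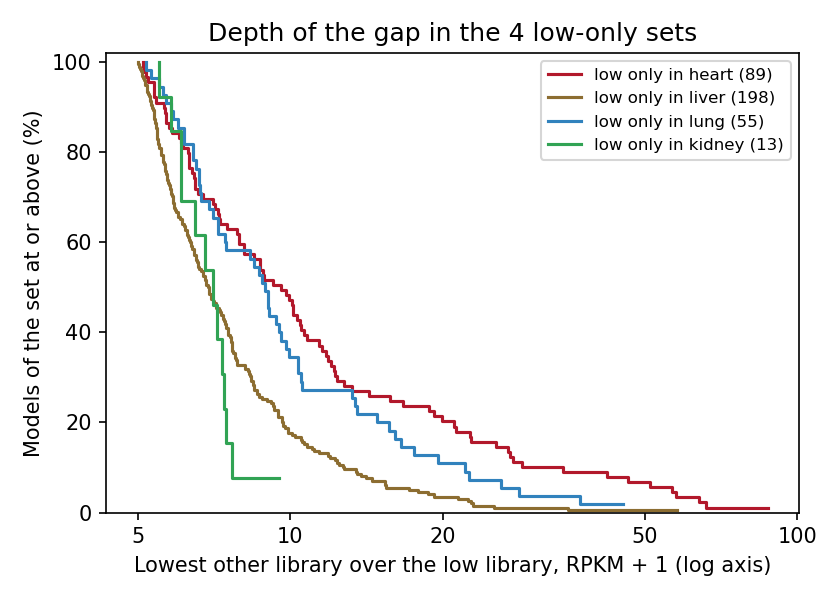
Percent of each set (vertical) at or above a given gap (horizontal, log axis), where the gap is the lowest of the 3 other libraries over the low library on the RPKM + 1 scale. As deposited, the heart curve (89 models) has 47.2% of its models at 10-fold or more, against 17.7% for liver (198 models).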

How the data were processed

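Trizol extraction of total RNA and TruSeq RNA library preparation are recorded per the labels' protocols. TopHat, a spliced aligner, is named in the submitters' processing notes without a version. Not given in the sources used here are the counter, its handling of strand and of multiply matching reads, the genome build and the annotation. Per the file headers, the authors deposited whole read counts and RPKM per gene model. RPKM equalled the count divided by length and library total in every row (relative tolerance 1e-12). A model missing from a file was taken as 0 reads. Of all model lengths 89.5% were multiples of 3, so most are coding lengths.

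The heart-low models, comparison sets and alternatives were chosen with earlier results of these data known. Models named are the 2 of widest gap to heart and the 2 furthest in each direction for each pair of other libraries. Intervals are 95%, exact Poisson or Clopper-Pearson for counts and ratios, and from order statistics for medians. For a model of 1266 bases, a single read equalled 0.193 RPKM in liver, 0.144 in kidney, 0.0892 in lung and 0.0562 in heart. The rule was tried on simulated Poisson counts of a profile shared by all libraries, with heart lowered by known folds in some models. That setting held no other organ differences, so it cannot show how often the rule errs in real organs. Gene lists could not be used. Scripts used scipy 1.17.1, numpy 2.4.6, pandas 2.3.3 and matplotlib 3.10.9 under Python 3.11.15. The 10 alternatives covered scaling, fold, pseudocount, minimum level, missing models and depth; the scaling of the gap in the 4 low-only sets was added after seeing the data.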

Additional observations from a re-analysis of the deposited data

How the results depend on the processing

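No paired analysis was possible because there was a single library per organ, and no replicate could be left out. The number of heart-low models was 207 at a 3-fold minimum, 42 at a 10-fold minimum and 36 with a pseudocount of 5 RPKM, and lay between 60 and 115 under the 7 other alternatives. With models chosen anew under median-ratio scaling, 50.6% were highest in liver and 12.99% in lung, and the median kidney minus liver difference was -0.21. The median lung minus kidney difference was -0.63 at the 10-fold minimum. With a pseudocount of 5 RPKM 0% of models stood next to another heart-low model. The other 82 of 90 values under alternatives stayed within 1.5 times the count or within the 95% interval of the value as deposited, including the median length under all 10. Of 10 log2 ratios for the 2 models of widest gap, 6 moved beyond the counting intervals taken on the RPKM + 1 scale, and 0 reversed. The 6 were those under median-ratio scaling and under both other pseudocounts. Another pseudocount puts the ratio itself on another scale, so those moves follow from the change of scale. Depth limits the heart values most where they rest on few reads.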
